A study of Mus musculus with 6 samples.

Results

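The genes described here encode proteins that coat lipid droplets or release fatty acids from them. They were 7 genes of 27597 named on the array, and were found as all probes other than controls that carry their names in the files. The coat genes were Plin1 (Plin in the files), Plin2 (Adfp in the files) and Cidec, and the lipolysis genes were Pnpla2, Abhd5, Lipe and Mgll. They had 12 probes, of which 11 were among the 20000 probes tested. Plin1 and Cidec are treated below as adipocyte-restricted coat genes, Plin2 as a broadly expressed coat gene, and the other 4 as broadly expressed lipolysis genes. That division follows general knowledge, and it was made with earlier results of these data known.

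Whole hearts of male mice, 12 weeks old, were compared between 3 wild-type (WT) mice and 3 TG-PKR1 mice, which carry a transgene for the prokineticin receptor PKR1. In TG-PKR1 mice the transgene is driven by the cardiomyocyte-specific alpha myosin heavy chain promoter, and per the methods mice were kept on a C57BL6/J background. RNA of each heart was labelled with Cy3 and hybridized to 1 single-colour Agilent array. The hearts are numbered WT 1 to 3 and TG-PKR1 1 to 3, and these numbers only name them. The methods speak of littermate controls in general, and the labels do not say which of these hearts shared a litter, so the p-values measure the spread between these 6 hearts.

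A lipid droplet is a core of triglyceride and sterol ester under a layer of phospholipid and coat proteins. In adipocytes, perilipin 1 (Plin1) shields the droplet from lipases in the fed state, and Cidec helps small droplets fuse into large ones. Lipolysis runs in steps: adipose triglyceride lipase (Pnpla2) with its co-activator Abhd5 removes the first fatty acid, hormone-sensitive lipase (Lipe) acts on diglyceride, and monoglyceride lipase (Mgll) releases the last one. Heart muscle stores little fat but turns it over quickly, with the broadly expressed machinery and other perilipins.

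RefSeq promoter windows (GRCm38.p6), each from 250 bases before to 50 bases after a start site, were found for 7 of the 7 genes, as 10 windows in all. The windows of Plin1 and Cidec are shown because these were the members that passed the test, and those of Plin2 and Mgll for contrast. Capitals mark the motifs found among 5 that were searched on both strands.

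Plin1, chr7:79732727-79733026, minus strand: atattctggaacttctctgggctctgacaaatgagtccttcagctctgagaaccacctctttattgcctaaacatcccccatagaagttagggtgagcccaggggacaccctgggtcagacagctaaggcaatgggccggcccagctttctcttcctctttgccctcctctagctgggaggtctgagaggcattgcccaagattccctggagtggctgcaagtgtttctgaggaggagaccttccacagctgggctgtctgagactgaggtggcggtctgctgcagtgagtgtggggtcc

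Cidec, first window, chr6:113434715-113435014, minus strand: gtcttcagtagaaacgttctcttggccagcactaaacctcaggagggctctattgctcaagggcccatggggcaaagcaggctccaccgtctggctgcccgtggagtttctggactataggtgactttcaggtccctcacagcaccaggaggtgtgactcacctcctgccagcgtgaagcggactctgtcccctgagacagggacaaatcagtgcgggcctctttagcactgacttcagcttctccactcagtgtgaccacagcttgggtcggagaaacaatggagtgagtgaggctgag

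Cidec, second window, chr6:113435711-113436010, minus strand: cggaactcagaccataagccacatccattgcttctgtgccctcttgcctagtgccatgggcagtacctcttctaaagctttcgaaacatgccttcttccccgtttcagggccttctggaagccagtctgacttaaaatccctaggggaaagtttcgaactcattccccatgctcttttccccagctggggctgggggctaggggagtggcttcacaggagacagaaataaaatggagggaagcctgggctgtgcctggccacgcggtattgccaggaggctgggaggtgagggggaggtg

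Plin2, chr4:86670010-86670309, minus strand: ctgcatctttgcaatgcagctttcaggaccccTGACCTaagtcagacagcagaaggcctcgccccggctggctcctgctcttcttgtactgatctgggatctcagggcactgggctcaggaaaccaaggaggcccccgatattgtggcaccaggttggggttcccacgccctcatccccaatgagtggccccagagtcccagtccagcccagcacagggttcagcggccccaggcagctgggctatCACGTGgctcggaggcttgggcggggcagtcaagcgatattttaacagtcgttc

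Mgll, first window, chr6:88724162-88724461, plus strand: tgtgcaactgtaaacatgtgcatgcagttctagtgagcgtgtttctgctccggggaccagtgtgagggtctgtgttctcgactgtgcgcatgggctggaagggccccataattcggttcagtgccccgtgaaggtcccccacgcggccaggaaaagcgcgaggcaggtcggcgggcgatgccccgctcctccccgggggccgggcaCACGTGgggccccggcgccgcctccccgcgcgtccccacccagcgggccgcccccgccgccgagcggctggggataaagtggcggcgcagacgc

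The motifs were the hexamer AGGTCA, the direct repeat of that hexamer with 1 base between the copies (DR1, read by PPAR and RXR dimers, and so overlapping it), the TATA box TATAAA, the C/EBP palindrome TTGCGCAA and the E-box CACGTG. None of these letters occurred in the windows of Plin1, Cidec or Pnpla2. The hexamer occurred in Plin2 and Abhd5, and in 16.3% of all 32851 windows. The E-box occurred in Plin2, Mgll and Lipe, and in 7.15% of all windows. The direct repeat, the TATA box and the C/EBP palindrome occurred in 0 of the 10 member windows, and in 0.0396%, 13.6% and 0.183% of all windows. The GC content was 55.7% in the Plin1 window and 55.7% and 56.3% in the Cidec windows. It was 60.7% for Plin2, 60.0% and 61.0% for Lipe, 65.3% for Pnpla2, 67.7% for Abhd5 and 70.0% and 72.3% for Mgll, against a median of 52.7% over all windows.

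The arrays held 19650 to 23571 probes well above background in WT hearts and 21091 to 24923 in TG-PKR1 hearts, of 41174 probes each. The saturation value in the file headers was 559351 to 569418 on 3 arrays (WT 1, TG-PKR1 2 and TG-PKR1 3) and 65265 or 65266 on the other 3 (WT 2, WT 3 and TG-PKR1 1). These sets of arrays are called the high-limit and low-limit arrays. The 75th percentile of spot signal over local background was 11.4 to 14.1 on the high-limit arrays and 2.08 to 3.97 on the low-limit arrays. WT 2 and TG-PKR1 1 shared 1 slide of 5. The Prokr1 probe was not well above background on any of the 6 arrays and could not check the genotype.

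All 11 tested member probes were well above background on 6 of 6 arrays and none was saturated. By limma with Benjamini-Hochberg adjustment over all 20000 probes, 2 of the 7 genes, Plin1 and Cidec, fell in TG-PKR1 hearts and 0 rose. The same test called 0.095% of all probes lower and 0% higher. The mean was lower in TG-PKR1 hearts for 10 of the 11 probes, and their median log2 difference was -0.51, against 0.03 over all probes tested. Without WT 1 the median was -0.15, with 9 probes lower, and it was -0.84 within the high-limit arrays and -0.10, with 7 lower, within the low-limit arrays. Without another heart it was -0.60 to -0.36, with 10 lower each time. For 7 of the 11 probes every TG-PKR1 heart lay below every WT heart, a pattern shown by 2.73% of all probes, and for 0 every TG-PKR1 heart lay above, against 2.68%. An unadjusted p under 0.05 with a lower mean was found for 5 of the 11 probes, 1 in each of 5 genes, and for 1.66% of all probes. SAM at an estimated false discovery rate of 0 called the same 2 member probes, and 0.281% of all probes, lower.

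**Figure D1:**
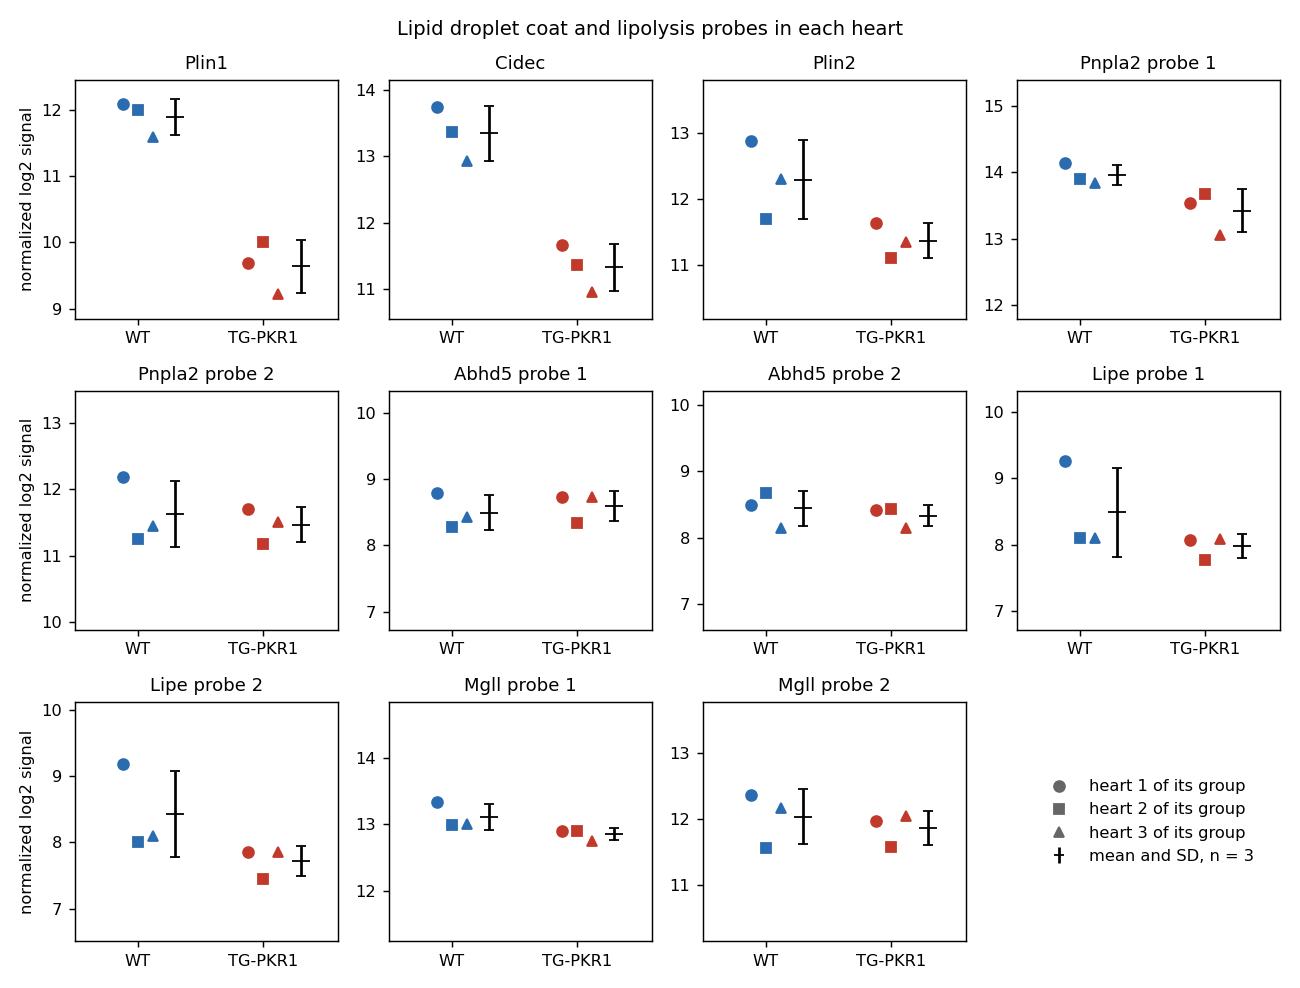
Normalized log2 signal (vertical axes, each spanning the same log2 range) of the 11 tested member probes in each of 3 WT hearts (blue) and 3 TG-PKR1 hearts (red), with the mean and SD in black. The groups lie well apart for Plin1 and Cidec, touch for Plin2, and overlap for both Abhd5 probes. The shapes only name hearts within a group and pair no hearts.

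Plin1 was the member with the lowest p. Its probe lies on chromosome 7 from 79594739 to 79594798 of mm8, the build of the files. Its normalized log2 signal was 12.09, 11.99 and 11.58 in WT hearts 1 to 3 and 9.70, 10.002 and 9.22 in TG-PKR1 hearts 1 to 3. Every TG-PKR1 heart thus lay at least 1.58 log2 units below every WT heart. The log2 difference was -2.25 ± 0.23 (SE, n = 3 per group), which is 4.75-fold lower, with a 95% interval from -2.78 to -1.72 and a limma adjusted p of 0.0339. In whole-heart RNA, fewer cells of a type and less RNA per cell cannot be told apart. The difference was -2.48 within the high-limit arrays, -2.09 within the low-limit arrays and -2.30 between the hearts that shared a slide. The adjusted p was 0.0440 without WT 2 and 0.0431 without TG-PKR1 2, and 0.0727 to 0.172 without WT 1, WT 3, TG-PKR1 1 or TG-PKR1 3. It was 0.189 with the saturation value as a block.

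Cidec, also known as Fsp27, gave a difference close to that of Plin1. Its probe lies on chromosome 6 from 113390476 to 113390535. The log2 signal was 13.75, 13.37 and 12.92 in WT hearts and 11.66, 11.36 and 10.96 in TG-PKR1 hearts. The groups were parted by at least 1.27 log2 units. The log2 difference was -2.02 ± 0.25 (SE, n = 3 per group), 4.07-fold lower, with a 95% interval from -2.60 to -1.45 and a limma adjusted p of 0.0387. It was -2.59 within the high-limit arrays, -1.49 within the low-limit arrays and -1.72 on the shared slide. Leaving out any 1 heart took the adjusted p above the threshold, to 0.0727 to 0.230, and with the saturation value as a block it was 0.211.

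Plin2, the perilipin that coats droplets in most tissues, gave a smaller difference with more spread. Its probe lies on chromosome 4 from 86128003 to 86128062. The log2 signal was 12.88, 11.70 and 12.30 in WT hearts and 11.64, 11.11 and 11.35 in TG-PKR1 hearts. The groups did not overlap, but the lowest WT heart and the highest TG-PKR1 heart were only 0.05 log2 units apart, and both were on the shared slide. The log2 difference was -0.92 ± 0.29 (SE, n = 3 per group), with a 95% interval from -1.58 to -0.26, an unadjusted p of 0.0119 and a limma adjusted p of 0.9999. That interval did not reach the interval of Plin1, and met that of Cidec. The difference was -1.64 within the high-limit arrays and -0.35 within the low-limit arrays.

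**Figure D2:**
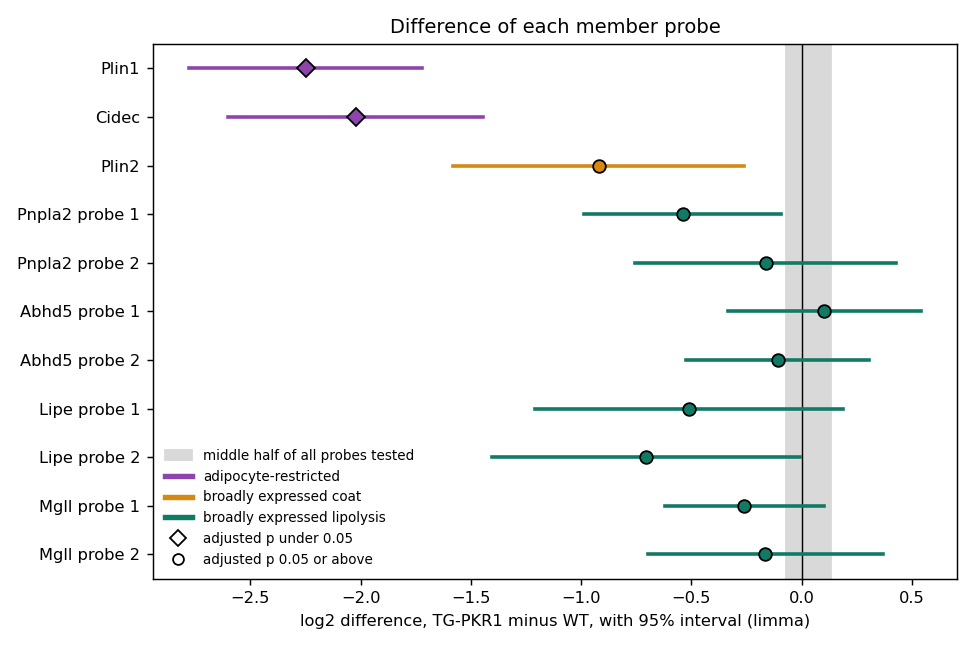
Log2 difference (horizontal axis, TG-PKR1 minus WT) of each tested member probe with its 95% interval from limma, coloured by class, with the middle range of all probes tested in grey (quartiles -0.07 and 0.13). Plin1 (-2.25) and Cidec (-2.02), shown as diamonds, passed the adjusted threshold, and the intervals of 6 of the other 9 probes include 0.

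Pnpla2, which starts triglyceride hydrolysis, was measured by a pair of probes with different readings. The brighter one lies on chromosome 7 from 141311351 to 141311410. Its log2 signal was 14.14, 13.90 and 13.84 in WT hearts and 13.53, 13.67 and 13.05 in TG-PKR1 hearts, with no overlap. The log2 difference was -0.54 ± 0.20 (SE, n = 3 per group), with a 95% interval from -0.99 to -0.09, an unadjusted p of 0.0236 and a limma adjusted p of 0.9999. It was -0.77 within the high-limit arrays, -0.34 within the low-limit arrays and -0.36 without TG-PKR1 3.

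The other Pnpla2 probe, from 141310521 to 141310580, read 12.19, 11.24 and 11.45 in WT hearts and 11.70, 11.18 and 11.51 in TG-PKR1 hearts. The groups overlapped, and the difference was -0.16 ± 0.26 with an interval from -0.76 to 0.43. It was -0.84 within the high-limit arrays and 0.35 within the low-limit arrays, so its sign turned between them, and it was 0.12 without WT 1.

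Abhd5, the co-activator of Pnpla2, did not pass the test with either probe. The first (chromosome 9, 122229563 to 122229622) read 8.79, 8.27 and 8.43 in WT hearts and 8.73, 8.34 and 8.73 in TG-PKR1 hearts. The second (122216780 to 122216839) read 8.49, 8.67 and 8.15 in WT hearts and 8.41, 8.42 and 8.15 in TG-PKR1 hearts. Both overlapped between the groups, and their differences had opposite signs. They were 0.10 ± 0.19 (interval -0.34 to 0.54) and -0.11 ± 0.18 (interval -0.52 to 0.30), with n = 3 per group. Neither interval reached that of Plin1 or Cidec. The Abhd5 signal was 2.0 to 4.3 times the local background on the low-limit arrays and 11.1 to 21.8 times on the high-limit arrays. Background was not subtracted, and its part in these intervals was not tested. The difference of the first probe was -0.26 within the high-limit arrays and 0.38 within the low-limit arrays, so its direction turned with the set of arrays. The second was -0.21 and 0.0033.

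Lipe, the lipase that hormones switch on in adipocytes, gave like readings with both of its probes. The first, whose position in the files spans 2254 bases of chromosome 7 from 25089715 to 25091968, read 9.26, 8.11 and 8.10 in WT hearts and 8.07, 7.77 and 8.09 in TG-PKR1 hearts. The second, from 25089569 to 25089628, read 9.18, 8.01 and 8.09 in WT hearts and 7.85, 7.45 and 7.85 in TG-PKR1 hearts. In both, WT 1 stood about 1 log2 unit above the other WT hearts. The rest of the hearts ran from 7.77 to 8.11 with the first probe and from 7.45 to 8.09 with the second.

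The Lipe differences were -0.51 ± 0.31 (interval -1.21 to 0.19, unadjusted p 0.131) and -0.71 ± 0.31 (interval -1.40 to -0.01, unadjusted p 0.0475), both with a limma adjusted p of 0.9999 (n = 3 per group). Without WT 1 they were -0.12 and -0.33. Within the high-limit arrays they were -1.34 and -1.53, and within the low-limit arrays -0.03 and -0.20. The Lipe signal was 1.90 to 3.56 times the local background on the low-limit arrays and 5.18 to 20.0 times on the high-limit arrays. The part of this in the result was not tested.

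Mgll, which completes lipolysis, had 3 probes. The brightest (chromosome 6, 88793933 to 88793992) read 13.34, 12.99 and 13.01 in WT hearts and 12.90, 12.90 and 12.75 in TG-PKR1 hearts, parted by 0.08. Its difference was -0.26 ± 0.16 (SE, n = 3 per group; interval -0.62 to 0.10). The second, placed from 88789022 to 88791325, read 12.36, 11.57 and 12.17 in WT hearts and 11.97, 11.58 and 12.05 in TG-PKR1 hearts. These overlapped, with a difference of -0.17 ± 0.23 (interval -0.70 to 0.37). Within the high-limit and low-limit arrays the brightest probe differed by -0.51 and -0.10, and the second by -0.54 and 0.099, a change of sign. Without WT 1 the brightest differed by -0.15. Without each heart in turn the second differed by -0.40 (without WT 2) to -0.0021 (without WT 1). The third probe (88732230 to 88732289) was not well above background on any array, with a median log2 signal of 5.85 against 6.40 for the dimmest probe tested, and was left out. Two-sided exact permutation tests of single probes cannot give a p below 0.1 with 3 hearts against 3, and gave 0.1 for the 7 probes without overlap.

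**Figure D3:**
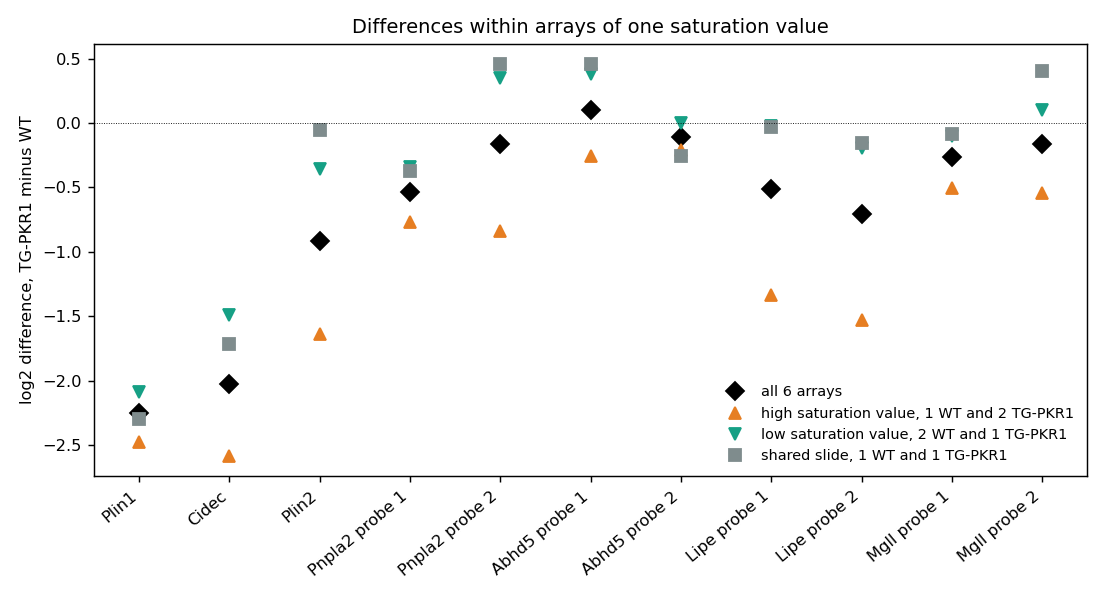
Log2 difference (vertical axis, TG-PKR1 minus WT) of each tested member probe over all 6 arrays, within the 3 high-limit arrays, within the 3 low-limit arrays and between the 2 hearts of the shared slide. Plin1 and Cidec are at or below -1.49 in each set, whereas Plin2 runs from -1.64 to -0.05 and the second Pnpla2 probe, both Abhd5 probes and the second Mgll probe take both signs among these sets.

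The rule for these members set the adipocyte-restricted coat genes against the broadly expressed lipolysis genes, with Plin2 in neither set. Relative to the WT mean, the average of Plin1 and Cidec was 0.30, 0.06 and -0.36 in WT hearts and -1.94, -1.94 and -2.53 in TG-PKR1 hearts. The average over the brightest probes of Pnpla2, Abhd5, Lipe and Mgll was 0.37, -0.20 and -0.17 in WT hearts and -0.20, -0.34 and -0.36 in TG-PKR1 hearts. The first set was thus far below WT in every TG-PKR1 heart, whereas the second lay just below the lowest WT heart.

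The adipocyte-restricted average differed by -2.14 and the lipolysis average by -0.30. Without WT 1 the lipolysis average differed by -0.12, and within the high-limit and low-limit arrays by -0.72 and -0.02. The adipocyte-restricted average differed by -1.99, -2.53 and -1.79 in the same selections. Their gap was -0.07, 0.26 and -0.19 in WT hearts (SD 0.24) and -1.74, -1.59 and -2.17 in TG-PKR1 hearts (SD 0.30). The mean gap of TG-PKR1 hearts minus that of WT hearts was -1.83, and the nearest WT and TG-PKR1 hearts were 1.40 apart. The gap was -1.82 within the high-limit arrays, -1.77 within the low-limit arrays and -1.999 on the shared slide. It was -1.90 with Lipe left out of the lipolysis set and -1.71 with Plin2 added to it, an alternative chosen after seeing the data, in which the broadly expressed average differed by -0.43. It is given as a description, because the division of the members was made with earlier results of these data known.

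**Figure D4:**
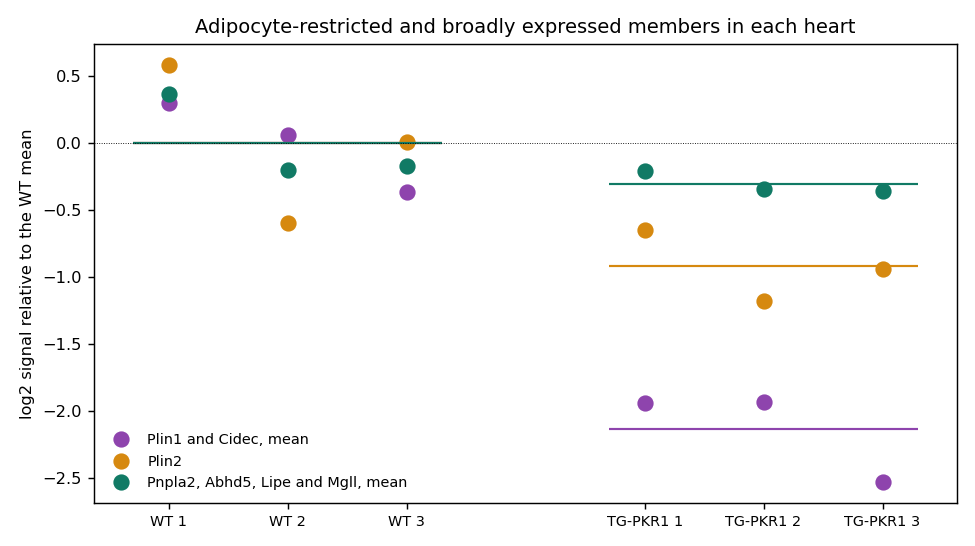
Log2 signal relative to the WT mean (vertical axis) in each of the 6 hearts, for the average of Plin1 and Cidec, for Plin2, and for the average of the 4 lipolysis genes, with lines at group means. TG-PKR1 means are -2.14, -0.92 and -0.30.

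Other coat proteins of the same families were read beside the members, with the perilipins singled out after their values were seen. The difference was 0.00 ± 0.15 (interval -0.34 to 0.34) for Plin3, -0.02 ± 0.19 (interval -0.45 to 0.41) for Plin4 and 0.10 ± 0.19 (interval -0.34 to 0.54) for Plin5, the perilipin typical of oxidative muscle (n = 3 per group). Plin5 was 0.50 within the high-limit arrays and -0.20 within the low-limit arrays. For each of the 3 genes the groups overlapped, and each interval lies above those of Plin1 and Cidec. Cidea, the CIDE protein of brown fat, read 15.57, 14.89 and 14.78 in WT hearts and 13.61, 13.27 and 13.03 in TG-PKR1 hearts. Its difference was -1.77 ± 0.25 with a limma adjusted p of 0.0603, and SAM called it lower.

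Across the values made by 10 ways of scaling or normalization, Plin1 ranged from -2.43 to -2.11, Cidec from -2.11 to -1.86, Cidea from -1.78 to -1.58 and Plin2 from -0.95 to -0.78. Plin3 and Plin4 ranged from -0.02 to 0.18 and from -0.02 to 0.17, and Plin5 from 0.01 to 0.29. The coat genes thus lay either near 0 or far below it under each scaling, with Plin2 in between.

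**Figure D5:**
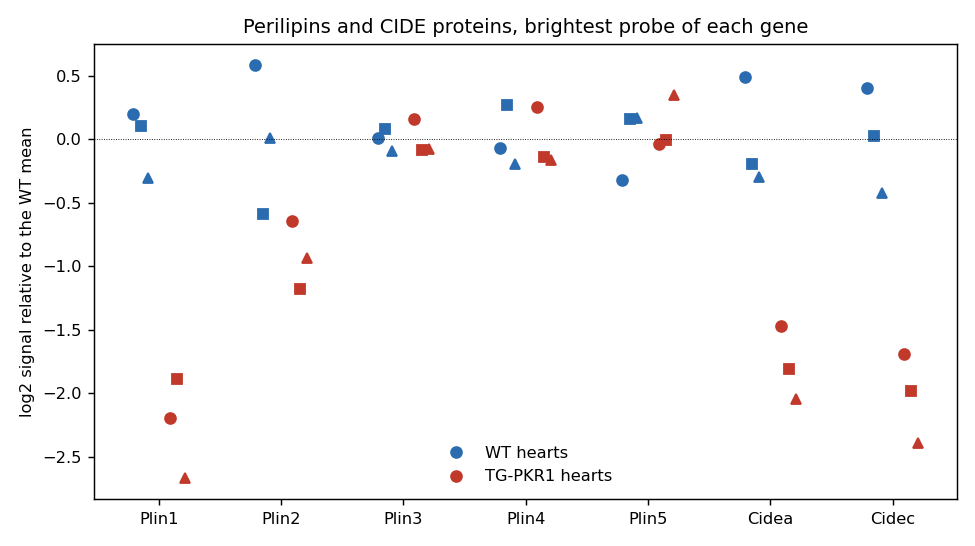
Log2 signal relative to the WT mean (vertical axis) of 5 perilipins and 2 CIDE proteins in 3 WT hearts (blue) and 3 TG-PKR1 hearts (red), for the brightest probe of each gene. TG-PKR1 hearts lie below all WT hearts for Plin1, Plin2, Cidea and Cidec, and the groups overlap for Plin3, Plin4 and Plin5.

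Of 21 other lipid droplet proteins, 20 were tested and limma called 0, with a median difference of -0.01, 11 lower and 9 higher means. For 2 of the 20 every TG-PKR1 heart was below every WT heart, against 2.73% of all probes. For 0 every TG-PKR1 heart was above, against 2.68%. The unadjusted p was under 0.05 with a lower mean for 2, against 1.66% of all probes, and with a higher mean for 0. SAM called 1 lower, against 0.281%. The 2 with an unadjusted p under 0.05 were Cidea, which SAM also called, and Bscl2 (seipin, a droplet assembly protein). Bscl2 differed by -1.01 ± 0.41 with overlapping hearts, and its probe was well above background on only 5 of 6 arrays. It read 6.17 in TG-PKR1 1, against a median of 6.40 for the dimmest probe tested, and 7.25 and 7.74 in the other TG-PKR1 hearts.

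Of 29 other neutral lipid hydrolases and release genes, 22 were tested and limma called 0, with a median of -0.09. That median was -0.22 within the high-limit arrays, -0.17 within the low-limit arrays and -0.15 without WT 3. Every TG-PKR1 heart was below every WT heart for 6 of the 22, against 2.73% of all probes. For 1 every TG-PKR1 heart was above, against 2.68%. The unadjusted p was under 0.05 with a lower mean for 5, against 1.66% of all probes, and with a higher mean for 0. SAM called 1 lower, Ces1f, against 0.281% of all probes. The smallest p values were those of the carboxylesterase Ces1f (-1.64 ± 0.25, adjusted p 0.101) and of the fatty acid carrier Fabp4 (-0.72 ± 0.19, adjusted p 0.816).

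Of 39 genes in the hormone control of lipolysis, 30 were tested, with a median difference of -0.04. The test called 1 lower and 0 higher, against 0.095% and 0% of all probes. The median of the list was -0.20 within the high-limit arrays and -0.01 within the low-limit arrays. Without each heart in turn it ran from -0.09 (without TG-PKR1 2) to 0.02 (without WT 1). The called gene was Prkar2b, a regulatory subunit of protein kinase A that is abundant in fat. Its difference was -2.54 ± 0.30, with a limma adjusted p of 0.0339. The Prkar2b call was lost in every setting that called 0 probes lower. Among these were the saturation value as a block, 75th percentile scaling of the median signal and the table of the authors. They also included the fits without WT 1, WT 3, TG-PKR1 1 or TG-PKR1 3. For 4 of the 30 every TG-PKR1 heart was below every WT heart, against 2.73% of all probes. For 0 every TG-PKR1 heart was above, against 2.68%. The unadjusted p was under 0.05 with a lower mean for 3, against 1.66% of all probes, and with a higher mean for 0. Besides Prkar2b, the 3 were the prostaglandin receptor gene Ptger3 (-1.05 ± 0.26, adjusted p 0.695) and the phosphodiesterase gene Pde3b (-0.45 ± 0.18, adjusted p 0.9999).

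Markers of adipocytes were read beside Plin1 and Cidec. Of 7 general adipocyte markers, 6 were tested. Every TG-PKR1 heart was below every WT heart for 6 of 6, against 2.73% of all probes. The median difference of the 6 markers was -1.23. The limma test called 1 of them lower, against 0.095% of all probes. It was Adipoq, the gene of adiponectin, at -1.93 ± 0.18 with a limma adjusted p of 0.0339. The other 5 markers had limma adjusted p values from 0.0594 (Retn) to 0.9999 (Cebpa). SAM called 4 of the 6 lower, against 0.281% of all probes. The Adipoq call was lost in every setting that called 0 probes lower. Among these were the saturation value as a block, 75th percentile scaling of the median signal and the table of the authors. They also included the fits without WT 1, WT 3, TG-PKR1 1 or TG-PKR1 3. The summed linear signal of the adipocyte markers was 114300 to 172000 in WT hearts and 67540 to 80450 in TG-PKR1 hearts. Fabp4, which gave the smallest difference of the 6 (-0.72), made up 68.4% to 85.9% of that sum, and the sum of the others was 36110 to 50360 in WT hearts and 9514 to 16540 in TG-PKR1 hearts. Lep was not among the tested probes and was above background on 2 of 6 arrays.

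Of 5 brown adipocyte markers 5 were tested, with a median of -1.77. The limma test called 1 lower, against 0.095% of all probes. It was the uncoupling protein gene Ucp1, at -3.23 ± 0.42 with a limma adjusted p of 0.0445. SAM called 4 of the 5 lower, against 0.281% of all probes. Of these 4, Elovl3 was well above background on only 4 of 6 arrays. Its log2 signal was 5.76 in TG-PKR1 3, against a median of 6.40 for the dimmest probe tested. The Ucp1 call was lost in every setting that called 0 probes lower. Among these were the saturation value as a block, 75th percentile scaling of the median signal and the table of the authors. They also included the fits without WT 1, WT 3, TG-PKR1 1 or TG-PKR1 3. The summed signal of the brown adipocyte markers was 39770 to 68590 in WT hearts and 10330 to 15550 in TG-PKR1 hearts. Cidea made up 59.6% to 81.0% of that sum. Every TG-PKR1 heart was below every WT heart for 4 of the 5, against 2.73% of all probes. The hearts of the groups overlapped for 1 of the 5, Prdm16. The adipocyte medians were -1.48 and -1.15, and the brown adipocyte medians -2.42 and -1.22, within the high-limit and low-limit arrays. The part of the adipocyte markers in the Plin1 and Cidec results was not tested.

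Markers of other cells gave medians nearer 0, with 0 called in each list. The medians were 0.07 for 8 cardiomyocyte, 0.05 for 5 endothelial, -0.06 for 5 macrophage, -0.10 for 5 fibroblast and -0.16 for 5 epicardial markers. Within the high-limit and low-limit arrays these medians were -0.32 and 0.59 for cardiomyocyte, -0.36 and 0.40 for endothelial, -0.17 and 0.07 for macrophage, 0.25 and -0.41 for fibroblast and -0.11 and -0.36 for epicardial markers. The first 4 lists thus had opposite signs in the 2 sets of arrays, and their medians over all hearts average these. The cardiomyocyte markers were all well above background, and their summed signal was 753000 to 1102000 in WT hearts and 787100 to 1344000 in TG-PKR1 hearts.

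The genes whose pattern over the 6 hearts lay closest to the coat genes were sought among 18779 probes well above background on all arrays. The measure was the root mean square difference of the log2 values relative to the WT mean. For Plin1 they were Pygl, a glycogen phosphorylase (0.17), Ntrk2 (0.23), Prkar2b (0.27), Rbp4, a retinol carrier (0.31), and Adipoq (0.33). For Cidec they were Adipoq (0.19), Cidea (0.21), Ntrk2 (0.23), Pygl (0.25) and Car3, a carbonic anhydrase (0.27). Pygl, Ntrk2 and Adipoq were near to both. The measure includes the difference between the groups, so it selects genes that are lower by a like amount, and it is a description over 6 hearts.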

How the data were processed

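The authors extracted scanner values per spot with Agilent Feature Extraction 9.5.1.1 and deposited them as fluorescence intensity, not normalized between arrays. They also deposited log2 values after LOWESS normalization to a median profile, with replicate probes averaged and dim probes removed, and 6 of the 6 value columns were matched to hearts. Here, log2 median signals were used without background subtraction and without control or outlier spots. The difference of an array from the median profile was fitted by loess (span 0.3, 4 iterations) on the mean of array and profile and subtracted. After averaging of spots, 20000 probes were kept by their median. Differences are TG-PKR1 minus WT.

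limma 3.58.1 in R 4.3.3 (with version 1.17.8 of data.table) tested all 20000 probes with Benjamini-Hochberg adjustment at 0.05, without covariates. SAM, named in the methods, was read at an estimated false discovery rate of 0. The procedure was tested on simulated data, and no outcome of that test is given here. Gene symbols came from RefSeq records of GRCm38.p6, by accession for 15334 probes and by name for 3039, and 1627 probes stayed under the name that the array design gives. Positions refer to mm8, as the files have them, and no annotation of that build was used, so exons and UTRs are not stated.

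The members and gene lists were chosen with earlier results of these data known. A listed gene was represented by its brightest probe. Named genes were every member probe, every called gene of the 3 lipid lists or, with none called, the 2 with the smallest p, and the 5 genes nearest to Plin1 and to Cidec. Plin3, Plin4, Plin5, Ptger3, Pde3b and the named markers stand outside this rule and were chosen after their values were seen. Protein sequences and probe sequences were not analysed here. Precision is limited by how far a signal stands above background and by how few arrays there were. The alternatives are in the closing section.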

Additional observations from a re-analysis of the deposited data

How the results depend on the processing

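With 3 hearts per group, the calls of Plin1 and Cidec rested on the settings, while both stayed lower in all 24 alternatives that gave a value for each. Alternatives that changed only the test or the set of probes tested repeat the main difference by construction. The log2 difference ranged from -2.48 to -2.04 for Plin1 and from -2.59 to -1.49 for Cidec. The limma adjusted p, given by 20 of the 24 alternatives, was under 0.05 in 10 for Plin1 (0.0123 to 0.490) and in 8 for Cidec (0.0175 to 0.657). Both genes lost the call, leaving 0 member genes and 0 probes called lower, with loess replaced by 75th percentile scaling of the median signal, the table of the authors, all probes, a filter on signal well above background in 3 or more arrays, and the saturation value as a block. With loess on the median profile, chosen after seeing the data, 0 member genes and 2 probes were called lower. The probes called lower, 19 in the main analysis, were 30 with normexp and quantile normalization, 33 with quantile normalization, 38 with loess on the array itself, also chosen after seeing the data, 31 with an intensity trend and 56 with SAM. With 75th percentile scaling of the background-subtracted signal, 22 probes and 2 member genes were called lower. Without each heart in turn, 0 to 19 probes and 0 to 1 member genes were called lower, and the gap between the member sets was -1.95 to -1.67. The cause of these changes was not tested. The second Pnpla2 probe ranged from -0.35 to 0.12 without each heart in turn, the first Abhd5 probe from -0.0091 to 0.25, and the second from -0.25 to 0.0090, each reversed once. No paired analysis was possible because titles give a shared number to only 1 WT and 1 TG-PKR1 heart, WT 2 and TG-PKR1 1, and that number is of their slide. Slide as a random block could not be fitted, because only 1 slide held more than 1 array. Low signal over background on 3 arrays limits the values of Lipe and Abhd5.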
